A study of Sus scrofa with 50 samples.

Results

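Spleens of Korean minipigs of the ET type were compared with spleens of the L type, gene by gene and by cell class, after haemoglobin transcripts were set aside and the libraries rescaled. The members are all spleen libraries of the series, 5 of ET-type animals (S0235, S0242, S0276, S0309 and S0326) and 5 of L-type animals (in this order S0349, S0355, S0377, S0384, S0385), so 10 of 50 libraries. The series also holds heart, kidney, liver and lung of these animals, and asks how the transcriptomes of the types differ. Each spleen library is a different animal, made from TRIzol-extracted total RNA with a kit for stranded mRNA. The labels give no treatment, and no age or sex is used here. What sets an ET-type animal apart from an L-type animal beyond the name is not in the labels. Values are TPM, a length-normalised share of all transcript molecules in a library. TPM was summed over transcripts whose best protein match was the same Swiss-Prot entry, and a gene is written by that entry's short name.

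The spleen filters blood and mounts immune responses. Its red pulp holds blood in venous sinuses, where macrophages take up old red cells and return their iron, and its white pulp gathers B and T lymphocytes around small arteries on a scaffold of stromal cells. Smooth muscle of the capsule and trabeculae lets the spleen of many mammals store and release red cells.

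The tissue label was borne out by its markers. TLX1, a homeobox factor needed to form the spleen (chromosome 14, 112206964 to 112213957 in pig build Sscrofa11.1, RefSeq), stood at 54.2 to 111 deposited TPM in the 10 spleens and at most 0.982 in the other 40 libraries. MADCA, the addressin of splenic sinus and mucosal vessels, reached 32.2 to 111 against at most 9.25 TPM, and HEM0, the erythroid enzyme that starts haem synthesis, 43.6 to 2479.8 against at most 6.76 TPM. CD79A, the signalling chain of the B cell receptor, ran from 26.1 to 197 TPM in spleens; elsewhere its highest value was 244, in an ET-type kidney library, and 37.0 without that library. On the rescaled values none of these markers was called between the types: the log2 difference, ET-type minus L-type throughout, was 0.36 (SE 0.19, adjusted p = 0.231) for TLX1, 0.39 (SE 0.30, adjusted p = 0.397) for MADCA, -0.56 (SE 0.28, adjusted p = 0.212) for CD79A and 2.69 (SE 0.91, adjusted p = 0.0826) for HEM0.

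The share of haemoglobin set some libraries apart. HBA, HBB and HBM, the haemoglobin chains of red cells, together made up 10.97, 17.9, 33.5, 15.7 and 29.1% of deposited TPM in the ET-type spleens, in the order of animals given above, and 13.6, 14.9, 0.548, 5.41 and 1.24% in the L-type spleens. The highest shares were in ET-type S0276 and S0326 and the lowest in L-type S0377 and S0385, and the ranges of the types overlapped. The means were 21.4 ± 9.46% and 7.13 ± 6.77% (SD, n = 5 each; exact 2-sided permutation p = 0.0317), and without any 1 of S0276, S0326, S0377, S0384 or S0385 the exact p lay between 0.0635 and 0.0794. HBB, the beta chain, averaged 139308 ± 60487 deposited TPM in ET-type and 50342 ± 48973 in L-type spleens, HBA, the alpha chain, 74124 ± 33797 and 20619 ± 18609, and HBM 959.7 ± 397 and 386 ± 406. A transcript that takes a large share of a library lowers every other TPM, so the haemoglobins were left out and each library was divided by a median-ratio size factor, 0.666 to 0.981 in ET-type and 1.04 to 1.45 in L-type spleens (exact permutation p = 0.00794, the smallest that 5 against 5 animals allow). After rescaling, 11833 to 11945 entries reached 1 TPM in ET-type and 12007 to 12251 in L-type spleens (the same exact p). No read counts were at hand, and the depth behind the values is unknown.

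The same libraries lay at the ends of the main axis of variation. The first principal component of log2(rescaled TPM + 1) held 41.2% of the variance and ran from ET-type S0326 and S0276 to L-type S0377 and S0385. Across entries, r between spleens was 0.903 to 0.975. Counts over all entries are given with all 10 spleens and again without L-type S0377 and S0385, without ET-type S0276 and S0326, and with the log2 of haemoglobin TPM as a covariate; single genes and lists are given under some of these settings, which were chosen after seeing the data.

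**Figure D1:**
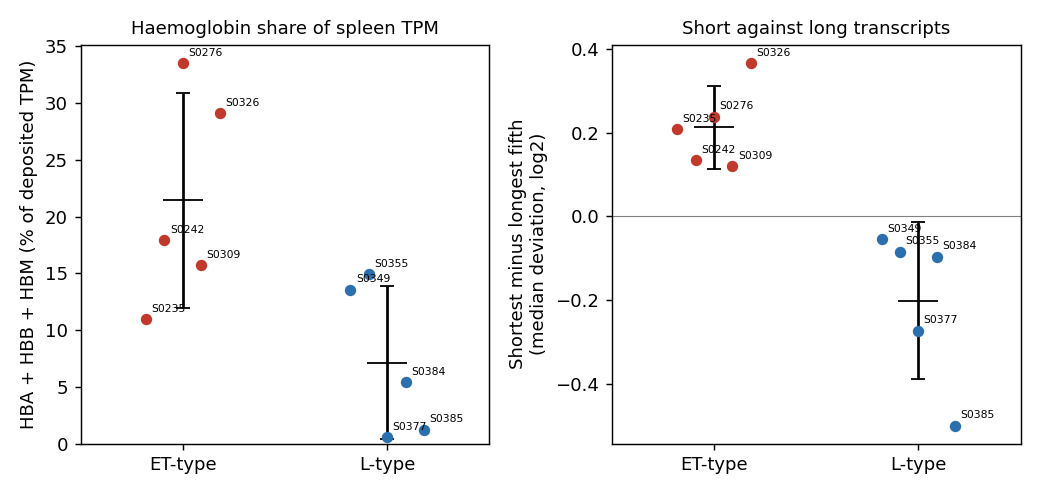
Left, the share of HBA, HBB and HBM in deposited TPM (%) in each spleen library; right, the median deviation of entries with the shortest transcripts minus that of entries with the longest (log2). Points are libraries named by animal, long ticks the mean and whiskers 1 SD of 5; haemoglobin shares overlap between the types, and the length measure is 0.12 to 0.37 in ET-type and -0.50 to -0.054 in L-type spleens.

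With all 10 spleens, 829 of 12176 entries with a mean of at least 1 rescaled TPM were called between the types by limma at an adjusted p below 0.05, which is 6.81% of those tested. Higher in ET-type spleens were 456 entries (3.75%) and lower were 373 (3.06%); 85 and 49 of them differed by at least 1 on the log2 scale. Their median log2 difference was 0.67 for the higher and -0.75 for the lower entries, against -0.0052 over all entries tested. Groups did not overlap in 1155 entries (9.49%), 649 of them called (5.33%). The number of calls depended on which libraries were included. Without L-type S0377 and S0385, limma called 0 entries (lowest adjusted p = 0.0552; 1791 entries with an unadjusted p below 0.05), without ET-type S0276 and S0326 it also called 0 (lowest 0.0580; 2472), and with the haemoglobin covariate 0 (lowest 0.0928; 1332). With all spleens 3631 entries had an unadjusted p below 0.05. Leaving out L-type S0385, L-type S0377 or ET-type S0326 alone left 7, 13 and 15 calls, leaving out ET-type S0235, ET-type S0276 or L-type S0384 left 116, 137 and 207, and leaving out ET-type S0242 left 327. With each of the 10 libraries left out in turn the count ran from 7 to 1096, so it could also rise above 829. A fit over all 50 libraries with the animal as block made 192. It pooled the spread of all tissues, the kidney libraries included. The medians that follow are of the entries called with all 10 spleens. These entries were chosen for their difference in the same libraries. That they kept much of it was all but fixed by that choice and is no support for them. Without S0377 and S0385 the median difference of the entries called higher was 0.55 and of those called lower -0.59; without S0276 and S0326 the values were 0.58 and -0.67, and with the covariate 0.49 and -0.51. The split between higher and lower calls depended on the scaling: 55.0% of calls were higher here, 2.42% of 4553 calls on TPM as deposited, where the median entry shifted by -0.47, and 9.82% of 2027 calls when the rest was only brought back to the same total, with a shift of -0.26. Among entries of at least 5 rescaled TPM, 66.8% of 648 calls were higher.

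Described next are the 15 called entries with the largest difference in each direction among those whose groups did not overlap. The lack of overlap in these entries was fixed by that choice and is no support for them. S10A9 and S10A8 are the subunits of calprotectin, a calcium- and zinc-binding complex that fills the cytosol of neutrophils and monocytes, and their genes are neighbours on chromosome 4 (S100A8 at 96209670 to 96210603, S100A9 at 96236114 to 96238989). S10A9 stood at 23.1, 36.4, 15.4, 26.5 and 117 rescaled TPM in the ET-type spleens and at 7.34, 4.62, 6.93, 6.49 and 2.02 in the L-type spleens. ET-type S0326 was far above the rest, and L-type S0385 was lowest. The difference was 2.50 (SE 0.46, adjusted p = 0.0297), 2.26 without S0377 and S0385, and 2.28 without S0276 and S0326. S10A8 held 3.52, 5.02, 5.86, 4.86 and 19.6 TPM in ET-type and 3.19, 1.46, 0.969, 1.75 and 1.16 in L-type spleens. The lowest ET-type value was just above the highest L-type value, and S0326 was again highest. It differed by 1.51 (SE 0.36, adjusted p = 0.0370). S115A, a further S100 protein, followed them with 11.11 ± 7.77 against 1.98 ± 1.79 TPM and a difference of 2.005 (SE 0.39, adjusted p = 0.0307).

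S2539 is the carrier that brings glutathione into mitochondria (chromosome 12, 18913261 to 18919761). It reached 209.6, 330.3, 648, 264 and 550.1 TPM in ET-type and 156, 181, 69.8, 96.9 and 54.0 TPM in L-type spleens. The ET-type spleens with the most haemoglobin, S0276 and S0326, were highest, and L-type S0377 and S0385 were lowest. Its difference of 1.85 (SE 0.38, adjusted p = 0.0310) became 0.94 with the haemoglobin covariate. BOLA2 is a small protein that works with glutaredoxin in the delivery of iron-sulphur clusters; human genomes hold near-identical copies of its gene, and pig copies could not be told apart here. It stood at 92.8, 64.6, 106, 73.3 and 137 TPM in ET-type and 35.8, 37.0, 26.4, 28.9 and 24.2 TPM in L-type spleens. ET-type S0326 was highest and the L-type spleens lay close together. The difference of 1.57 (SE 0.20, adjusted p = 0.00920) was 1.40 without S0377 and S0385 and 1.25 with the covariate. ATP5H, a stalk subunit of the ATP synthase, had 69.1 ± 17.6 against 25.4 ± 16.8 TPM and a difference of 1.70 (SE 0.46, adjusted p = 0.0471).

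SNAI2, the transcription factor Slug of mesenchymal cells (chromosome 4, 79264880 to 79268475), stood at 10.9, 6.19, 11.9, 6.06 and 12.3 TPM in ET-type and 2.28, 2.47, 1.57, 3.42 and 1.77 TPM in L-type spleens. S0276 and S0326 were highest and S0377 lowest, and the difference of 1.64 (SE 0.22, adjusted p = 0.0170) was 1.42 without S0377 and S0385 and 1.36 with the covariate. TNR12, the receptor Fn14 of the cytokine TWEAK (chromosome 3, 39166288 to 39168294), held 28.2, 18.7, 49.8, 18.6 and 44.5 TPM in ET-type and 8.59, 12.2, 5.54, 10.2 and 6.78 TPM in L-type spleens. S0276 and S0326 were highest and S0377 and S0385 lowest, and the difference was 1.70 (SE 0.29, adjusted p = 0.0297). SMAGP, a small membrane glycoprotein first described in epithelia, had the largest difference of the 15, 2.57 (SE 0.56, adjusted p = 0.0348). Its ET-type spleens stood at 21.7, 12.4, 26.7, 31.0 and 67.7 TPM and its L-type spleens at 8.31, 6.45, 0.836, 9.13 and 0.923 TPM. L-type S0377 and S0385 were close to 0 and the other 3 L-type spleens lay between them and the lowest ET-type spleen. The difference was 1.66 without S0377 and S0385. The matrix glycoprotein FBLN3 differed by 1.98 (SE 0.40, adjusted p = 0.0307), the secreted protease HTRA3 by 1.52 (SE 0.32, adjusted p = 0.0340), the heparan sulphate proteoglycan GPC3 by 1.40 (SE 0.35, adjusted p = 0.0393) and the beta tropomyosin TPM2 by 1.38 (SE 0.30, adjusted p = 0.0342). The calmodulin regulator PCP4 differed by 1.65 (SE 0.39, adjusted p = 0.0363) and HSPB7, a small heat shock protein of muscle, by 1.65 (SE 0.37, adjusted p = 0.0355). With the covariate FBLN3 stood at 0.94, HTRA3 at 0.87, GPC3 at 0.94 and TPM2 at 0.75.

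Of the entries chosen as lower in ET-type spleens, CTR1 imports arginine and lysine (chromosome 11, 6538053 to 6604654). It stood at 4.79, 6.39, 3.81, 3.34 and 3.24 TPM in ET-type and 15.8, 11.09, 14.8, 18.8 and 19.1 TPM in L-type spleens. The highest ET-type spleen was S0242 and the lowest L-type spleen S0355, and the difference was -1.68 (SE 0.19, adjusted p = 0.00493), -1.60 without S0377 and S0385 and -1.51 with the covariate. SLAF7, a receptor of NK cells and plasma cells, had 1.80, 3.21, 1.91, 1.56 and 1.64 TPM in ET-type and 7.88, 5.83, 9.85, 7.27 and 9.07 TPM in L-type spleens. S0242 was highest of the ET-type spleens and S0355 lowest of the L-type spleens. The difference was -1.58 (SE 0.17, adjusted p = 0.00493) and stood at -1.40 and -1.34 under the same settings. CTR1 and SLAF7 shared the lowest adjusted p. KLRG1, an inhibitory receptor of NK cells and experienced T cells (chromosome 5, 62506001 to 62523969), held 5.89, 3.50, 2.57, 2.73 and 3.20 TPM in ET-type and 14.5, 6.96, 12.1, 8.33 and 13.2 TPM in L-type spleens. S0235 was highest of the ET-type and S0355 lowest of the L-type spleens, and the difference was -1.39 (SE 0.23, adjusted p = 0.0278).

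ITA4, the alpha-4 integrin that lymphocytes use to stick to vessel walls (chromosome 15, 86942054 to 87028428), stood at 7.29, 10.5, 5.82, 10.1 and 5.16 TPM in ET-type and 17.5, 12.8, 22.2, 18.3 and 24.4 TPM in L-type spleens. L-type S0377 and S0385 were highest, and S0355 was the lowest L-type spleen. The difference was -1.21 (SE 0.21, adjusted p = 0.0297), and -1.002 without S0377 and S0385. UBS3B, a phosphatase that restrains T cell receptor signalling, differed by -1.503 (SE 0.29, adjusted p = 0.0307). CY24B, the catalytic subunit of the phagocyte NADPH oxidase, had 11.6 ± 6.69 against 31.1 ± 9.95 TPM and a difference of -1.52 (SE 0.41, adjusted p = 0.0486), in the opposite direction to the calprotectin subunits. The lipid flippase AT11A differed by -1.38 (SE 0.27, adjusted p = 0.0307), the prostaglandin transporter SO2A1 by -1.29 (SE 0.31, adjusted p = 0.0370) and the methyl-CpG binding repressor ZBTB4 by -1.21 (SE 0.22, adjusted p = 0.0297). ADEC1, a protease-like protein of macrophages and dendritic cells, differed by -1.20 (SE 0.27, adjusted p = 0.0359), the Polycomb-related SCML4 by -1.19 (SE 0.24, adjusted p = 0.0307), the collagen chain CO6A5 by -1.20 (SE 0.19, adjusted p = 0.0225) and the homeobox factor HXB8 by -1.18 (SE 0.18, adjusted p = 0.0208). CO6A5 and HXB8 were low, with 1.04 ± 0.461 and 1.08 ± 0.409 TPM in ET-type spleens. The entry ARHGI, also among the 15, differed by -1.20. The largest negative difference of the 15, -2.22 (SE 0.34, adjusted p = 0.0208), belonged to the entry CSGB, a bacterial protein that the transcript matched at only 34.5% identity, so the name does not tell what the transcript is. With the covariate, limma called none of the 30 entries chosen by size, 15 in each direction, and each kept its direction. Each also kept it without S0377 and S0385. The choice of entries without overlap all but fixed that outcome, so it is no support for them.

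**Figure D2:**
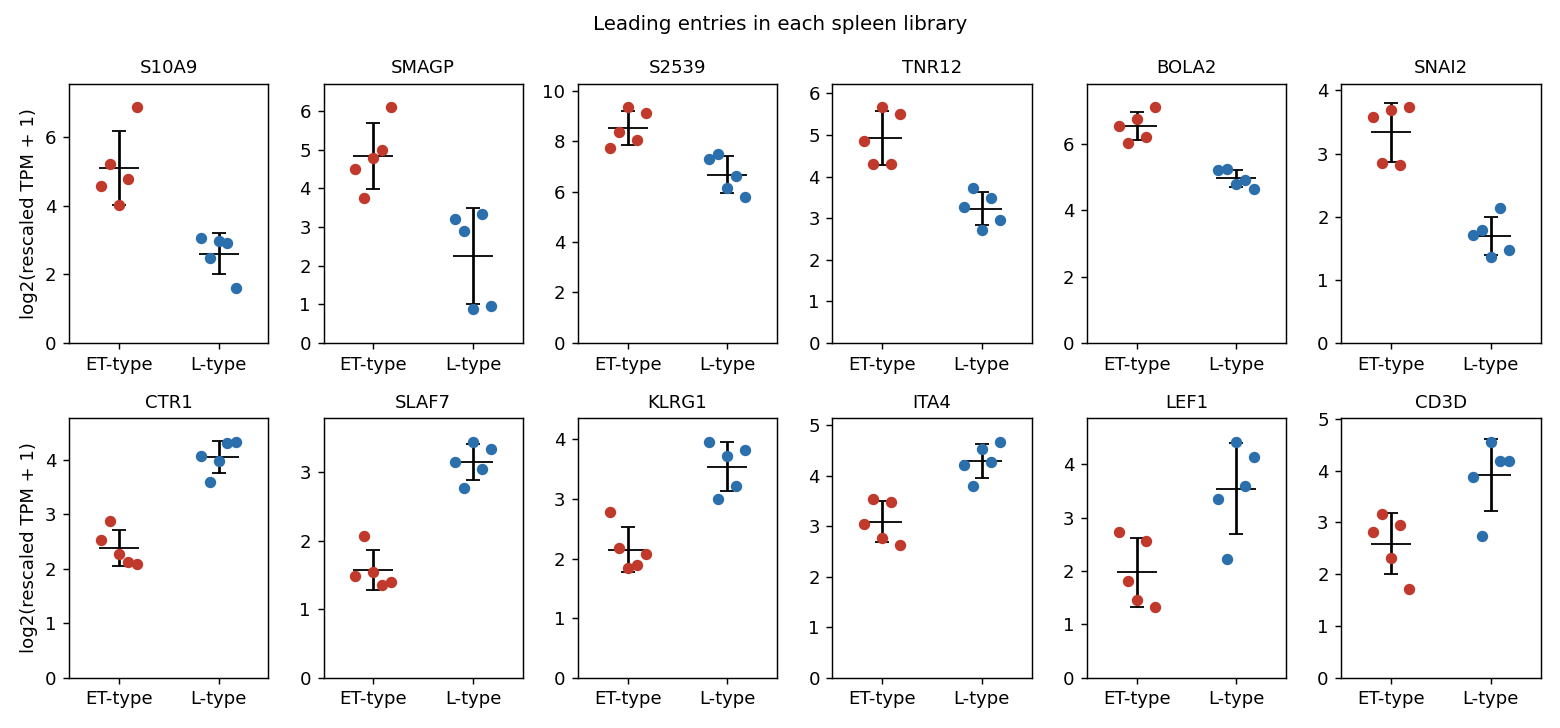
Level of 12 entries, log2(rescaled TPM + 1), in each spleen library: red points ET-type, blue points L-type, long ticks the mean and whiskers 1 SD of 5. LEF1 and CD3D overlap between the types through L-type S0355.

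**Figure D3:**
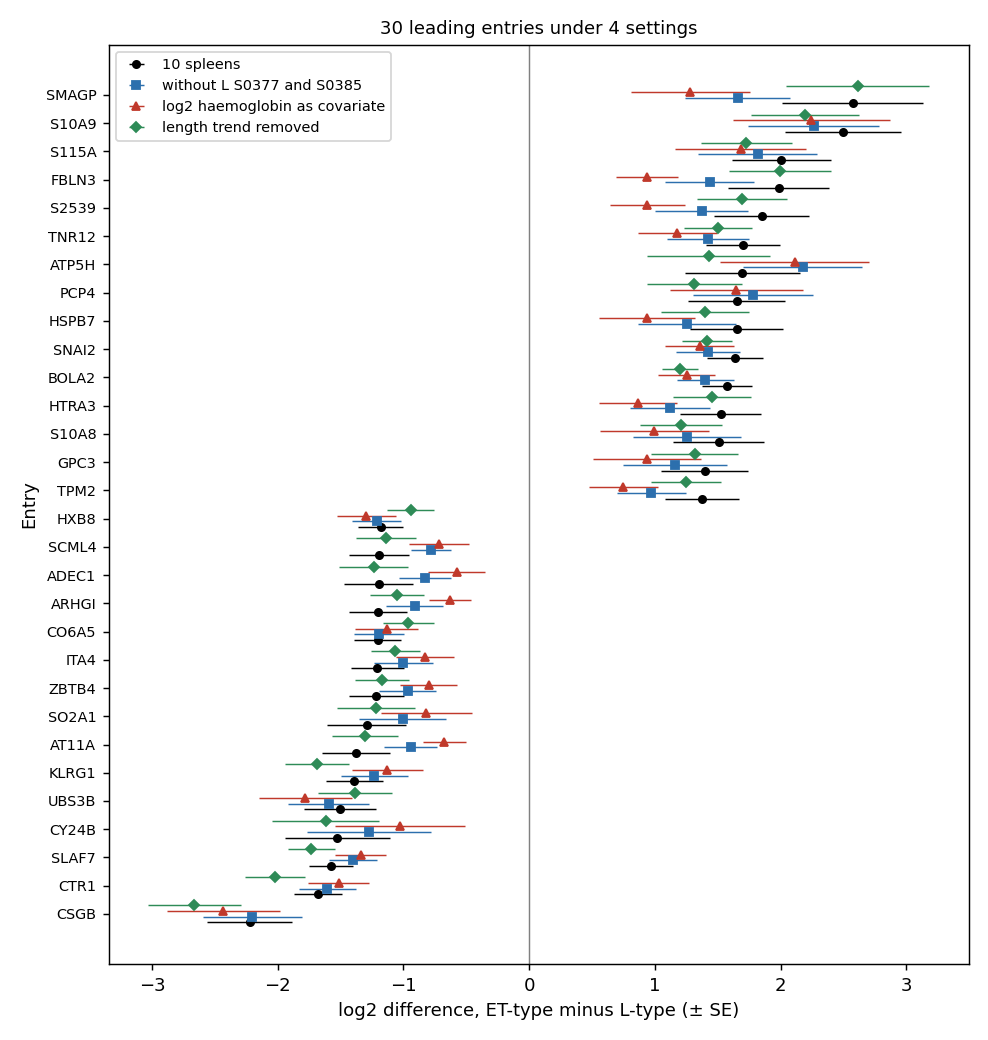
Log2 difference, ET-type minus L-type, of the called entries whose groups do not overlap, the 15 with the largest difference in each direction (points, with 1 SE): all 10 spleens, without L-type S0377 and S0385, with log2 haemoglobin TPM as covariate, and with the trend in transcript length removed. No point crosses 0, and most lie closer to 0 with the covariate than with all spleens. For the setting without S0377 and S0385, the choice of entries without overlap all but fixed the side of 0.

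Cell classes were described by lists of marker genes, with the number called, the median log2 difference and the mean level per library; over all entries 3.75% were called higher, 3.06% lower and the median was -0.0052. In these bulk samples, fewer cells of a type and less RNA per cell cannot be told apart. Measured members are those that were matched and had a mean of at least 1 rescaled TPM, 362 of 463 listed. Of the T cell list, the 24 measured members all had a difference below 0 (28 were listed), their median was -0.96, and 2 were called. These were LEF1, a transcription factor of naive T cells (chromosome 8, 113824511 to 113944078), and CD3D, a chain of the T cell receptor complex (chromosome 9, 45640475 to 45644153). CD3D stood at 5.997, 7.97, 3.98, 6.76 and 2.26 TPM in ET-type and 13.6, 5.70, 22.4, 17.2 and 17.2 TPM in L-type spleens. L-type S0355 lay among the ET-type spleens and the other L-type spleens above them. The difference was -1.32 (SE 0.34, adjusted p = 0.0438). LEF1 had 5.67, 2.49, 1.75, 4.93 and 1.49 TPM in ET-type and 9.13, 3.69, 20.4, 11.08 and 16.6 TPM in L-type spleens, a difference of -1.57 (SE 0.40, adjusted p = 0.0417). With the covariate it was -0.60, and that of CD3D -0.64; without S0377 and S0385 the values were -1.07 and -1.01. The other defining T cell markers did not pass: CD3E differed by -0.95 (SE 0.35, adjusted p = 0.101), CD3G by -1.12 (SE 0.32, adjusted p = 0.0542) and CD2, an adhesion molecule, by -0.97 (SE 0.28, adjusted p = 0.0545). The mean level of the list was 3.22, 2.91, 2.63, 3.29 and 2.34 on the log2 scale in the ET-type and 3.62, 2.94, 4.53, 4.05 and 4.07 in the L-type spleens, lowest in S0326 and S0276 and highest in S0377. It moved with the haemoglobin share, and the part of blood content in it was not tested beyond the covariate, with which the median was -0.38; without S0377 and S0385 it was -0.68.

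B cell genes leaned the same way with no member called. Of 23 measured, 22 had a difference below 0, and the median was -0.68. CD79B, the partner of CD79A, stood at 25.7, 14.1, 7.96, 18.3 and 8.67 TPM in ET-type and 22.7, 11.3, 92.0, 47.0 and 39.4 TPM in L-type spleens, and differed by -1.26 (SE 0.48, adjusted p = 0.109). L-type S0377 was far above the rest and S0349 and S0355 lay among the ET-type spleens. The B cell surface protein CD20 differed by -1.32 (SE 0.70, adjusted p = 0.225), and PAX5, the factor that fixes B cell identity, by -1.18 (SE 0.56, adjusted p = 0.178). The 2 members with the smallest p were HVCN1, a proton channel, with -1.15 (SE 0.32, adjusted p = 0.0501), and the kinase BLK with -1.05 (SE 0.39, adjusted p = 0.106). The list's median was -0.27 without S0377 and S0385, -0.43 without S0276 and S0326, and turned to 0.14 with the covariate. The germinal centre list, with 9 members, had a median of -0.38 and none called; it too turned, to 0.13, with the covariate. Its members with the smallest p went opposite ways, MEF2B, a partner of BCL6, by 0.32 (SE 0.13, adjusted p = 0.127) and BACH2, a repressor that delays plasma cell fate, by -0.67 (SE 0.28, adjusted p = 0.134). In the plasma cell list of 14, the transcription factor IRF4 was called lower with 9.78 ± 1.73 against 20.2 ± 6.85 TPM and -0.92 (SE 0.23, adjusted p = 0.0414), while the joining chain IGJ stood at 1489 ± 470.0 and 1562 ± 489.9 TPM, MZB1 at 290.1 ± 94.4 and 310.0 ± 60.8 TPM and TNR17, the BCMA receptor, at 27.9 ± 4.88 and 36.5 ± 18.6 TPM; the list's median was -0.14.

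Among 6 genes of regulatory and gamma-delta T cells, all with differences below 0 and a median of -0.79, SOX13, a factor of gamma-delta T cells, was called lower (log2 difference -0.86, SE 0.20, adjusted p = 0.0363). It had 5.19, 3.49, 3.11, 4.23 and 2.13 TPM in ET-type and 6.87, 6.56, 5.03, 9.62 and 8.68 TPM in L-type spleens, with overlap through ET-type S0235 and L-type S0377, and its difference was -0.92 without S0377 and S0385 and -0.84 with the covariate. The NK and cytotoxic list held 20 members with none called and a median of -0.26. GRAH, a granzyme, differed by -0.95 (SE 0.33, adjusted p = 0.0873) with no overlap, the protease CATW by -0.51 (SE 0.19, adjusted p = 0.0972), and the pore-forming PERF by -0.16 (SE 0.21, adjusted p = 0.638); NKG7, a granule protein, stood at 164 ± 22.8 and 151 ± 7.73 TPM. KLRG1 and SLAF7, described above, were not on this list. The dendritic cell list of 12 had a median of -0.21 and none called; ITF2, a factor of plasmacytoid cells, differed by -0.54 (SE 0.16, adjusted p = 0.0583) and the integrin ITAX by -0.48 (SE 0.15, adjusted p = 0.0696).

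Erythroid genes other than the haemoglobins gave differences of several log2 units for some members, and no member passed the test. Of 21 measured, 17 had a difference above 0 and the median was 0.54. AHSP, the chaperone of free alpha globin (chromosome 3, 17059340 to 17060343), stood at 585, 1047, 2445, 1111 and 3158 TPM in ET-type and 598, 801, 15.1, 204 and 39.3 TPM in L-type spleens. L-type S0349 and S0355 overlapped the ET-type spleens, while S0377 and S0385 were far below all others. The difference was 3.27 (SE 0.97, adjusted p = 0.0583), and 0.44 with the covariate. HEM0 stood at 849, 1539.7, 3602, 1136 and 2324 TPM in ET-type and 923, 1359, 33.0, 398 and 64.7 TPM in L-type spleens and a difference that was 1.05 without S0377 and S0385 and 0.018 with the covariate. DCUP, a later enzyme of haem synthesis, differed by 0.60 (SE 0.18, adjusted p = 0.0589), and GLPA, the glycophorin of the red cell surface, by 2.06 (SE 0.65, adjusted p = 0.0662). The list's median was 0.13 with the covariate. Since the covariate is itself the level of red cell transcripts, it takes out differences of erythroid genes by construction. The falls of HEM0, AHSP and this list with it are therefore no result about these genes. The red pulp macrophage and iron recycling list showed no call among 27 members and a median of 0.17. SPIC, the factor of red pulp macrophages, stood at 352 ± 60.5 in ET-type and 343 ± 72.5 TPM in L-type spleens, VCAM1, an adhesion molecule, at 1277 ± 320.2 and 1360.4 ± 181, and S40A1, the iron exporter ferroportin, at 345 ± 103 and 389 ± 92.2 TPM. C163A, the scavenger receptor of haemoglobin, differed by -0.86 (SE 0.32, adjusted p = 0.102). C1QB, a chain of complement C1q, had 9853, 9299.6, 8226, 9252 and 9409 TPM in ET-type and 6016, 6847, 7355, 6523 and 6097 TPM in L-type spleens. The groups did not overlap, yet the difference of 0.49 (SE 0.14, adjusted p = 0.0541) missed the threshold.

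In the list of granulocytes and monocytes, 2 of 11 members were called, the calprotectin subunits S10A9 and S10A8, and the median was 0.34. The mean level was 3.54, 3.77, 3.81, 3.73 and 4.19 in ET-type and 3.32, 3.27, 3.20, 3.21 and 2.92 in L-type spleens and did not overlap. S10A9 and S10A8 enter this mean and were the only 2 of the 11 members whose own groups did not overlap. They were described above because of that lack of overlap, and the mean level without them was not tested. Other members gave no call: CXCR2, the chemokine receptor of neutrophils, stood at 94.3 ± 14.96 and 76.1 ± 21.2 TPM, and LYAM1, L-selectin, differed by -1.11 (SE 0.42, adjusted p = 0.110). The platelet list of 8 had a median of -0.054 with GPIX, a platelet surface receptor, at 0.49 (SE 0.18, adjusted p = 0.1001) and clotting factor FA5 at -0.62 (SE 0.27, adjusted p = 0.144). The progenitor list of 7 had a median of 0.11 with the factors RBTN2 at 0.37 (SE 0.19, adjusted p = 0.203) and RUNX1 at -0.26 (SE 0.15, adjusted p = 0.274). Neither list held a call.

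Vessel, matrix and muscle genes were higher in ET-type spleens in part. Of 18 endothelial genes 2 were called higher, and the median was 0.38. SOX18, a factor of blood and lymph vessel formation, had 27.4, 29.2, 21.6, 25.5 and 57.3 TPM in ET-type and 16.0, 13.4, 7.88, 16.4 and 6.98 TPM in L-type spleens, without overlap, and differed by 1.33 (SE 0.29, adjusted p = 0.0347). VGFR3, the receptor of lymphatic and sinus endothelium, differed by 0.79 (SE 0.19, adjusted p = 0.0389), while the junction proteins CADH5 and PECA1 did not pass, with 0.34 (SE 0.18, adjusted p = 0.222) and -0.065 (SE 0.15, adjusted p = 0.792). Of 14 smooth muscle genes 12 had a difference above 0, the median was 0.91, and TPM2 and DESM, the muscle filament protein desmin, were called. DESM stood at 288, 338, 549, 268 and 547 TPM in ET-type and 164, 239, 97.6, 265 and 117 TPM in L-type spleens. The lowest ET-type spleen, S0309, was just above the highest L-type spleen, S0384, and the difference was 1.20 (SE 0.30, adjusted p = 0.0406). The list's mean level was 8.08 to 9.20 in ET-type and 6.98 to 8.47 in L-type spleens, lowest in S0377 and S0385, and its median was 0.39 without them and 0.17 with the covariate. Of 17 matrix genes 15 had a difference above 0, with a median of 0.50. Called were the small proteoglycan biglycan, PGS1, with 457 ± 128 against 199 ± 83.1 TPM (log2 difference 1.26, SE 0.28, adjusted p = 0.0352), and SPRC, the collagen-binding protein SPARC, with 509.8 ± 139 against 241 ± 95.7 TPM (log2 difference 1.15, SE 0.29, adjusted p = 0.0389). The list's median was 0.29 without S0377 and S0385 and 0.18 with the covariate. The white pulp stroma list of 17 had a median of 0.15 and no call. TNR3, the lymphotoxin receptor, differed by 0.40 (SE 0.11, adjusted p = 0.0519) without overlap and PGFRB, the receptor of pericytes, by -0.63 (SE 0.18, adjusted p = 0.0535). The chemokines that place lymphocytes gave no call, CCL19 at 83.5 ± 31.8 and 85.9 ± 44.7 TPM and CXL13 at 47.8 ± 25.2 and 56.9 ± 37.2 TPM.

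**Figure D4:**
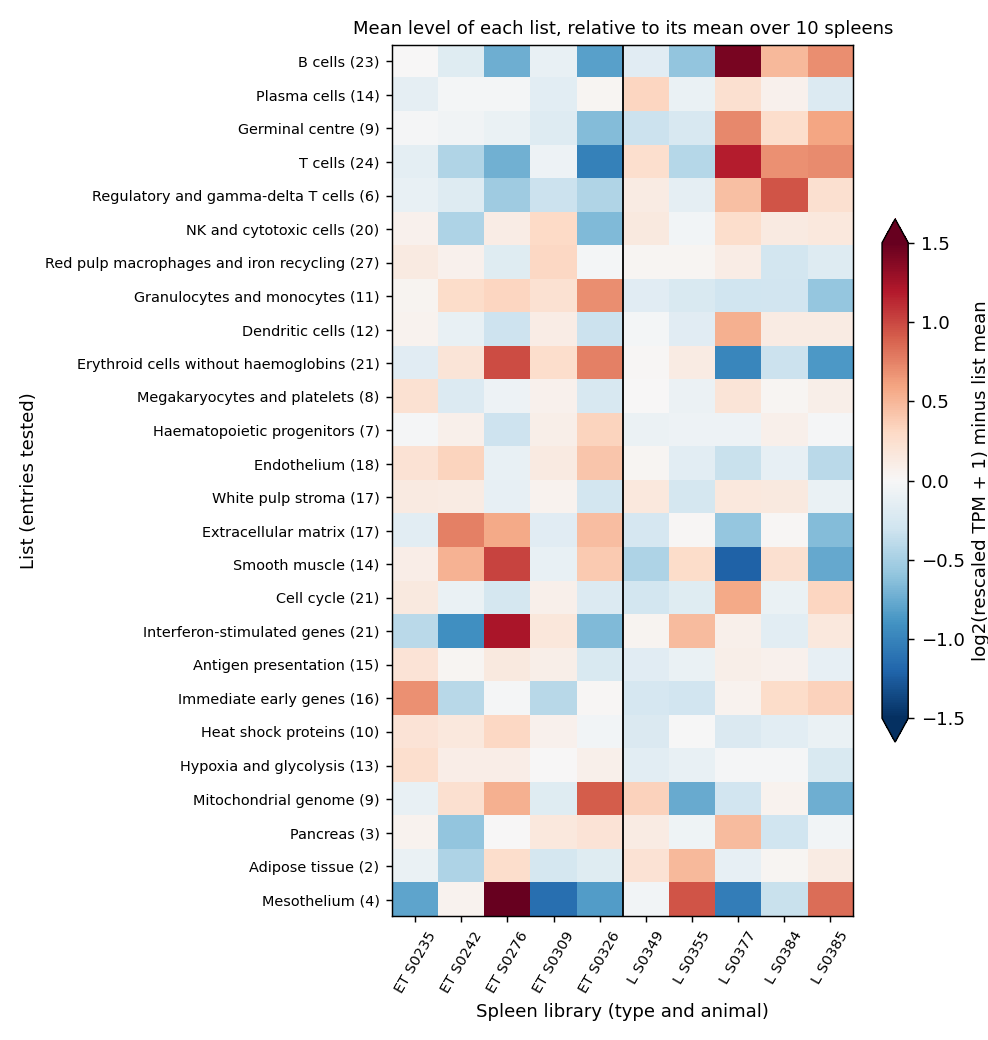
Mean level of the measured members of each list, log2(rescaled TPM + 1), minus the list's mean over the 10 spleens (colour), by library (columns; ET-type left of the line) with the number of entries in brackets. T and B cell lists are high in L-type S0377 and low in ET-type S0326 and S0276, and the erythroid and smooth muscle lists show the reverse.

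Lists of cell states gave calls in metabolism and stress. Of 13 hypoxia and glycolysis genes 3 were called higher, all glycolytic enzymes, and the median was 0.27. ALDOA, aldolase A (chromosome 3, 18246036 to 18260167), stood at 959, 902, 837, 708 and 875 TPM in ET-type and 362, 509, 468, 506 and 356 TPM in L-type spleens. Each ET-type spleen was well above each L-type spleen. The difference of 0.97 (SE 0.15, adjusted p = 0.0208) was 0.90 without S0377 and S0385, 0.97 without S0276 and S0326 and 0.95 with the covariate. G3P, the dehydrogenase often used as a reference gene (chromosome 5, 64129678 to 64135194), had 1118, 1196, 1203, 1005 and 1277 TPM in ET-type and 713, 804, 694, 719 and 609 TPM in L-type spleens, no overlap, and a difference of 0.71 (SE 0.12, adjusted p = 0.0297). TPIS, triosephosphate isomerase, differed by 0.60 (SE 0.15, adjusted p = 0.0389). Of the hypoxia side, the growth factor VEGFA differed by 0.15 (SE 0.17, adjusted p = 0.575) and carbonic anhydrase CAH9 by -0.22 (SE 0.20, adjusted p = 0.473). Of 10 heat shock genes 2 were called higher, and the median was 0.25. The small heat shock protein HSPB1 stood at 742 ± 243 against 364 ± 83.9 TPM (log2 difference 1.003, SE 0.21, adjusted p = 0.0340), and HS71B, an inducible HSP70 with a near-identical neighbour gene that shares its reads, at 77.7 ± 14.2 against 47.6 ± 9.42 TPM (log2 difference 0.70, SE 0.17, adjusted p = 0.0371).

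No member was called in the cell cycle list (21 genes, median -0.085), the interferon list (21, -0.20), the antigen presentation list (15, 0.19), the immediate early list (16, -0.14) or the list of genes encoded in mitochondrial DNA (9, 0.38). The members with the smallest p were TOP2A, a topoisomerase of dividing cells, with -0.73 (SE 0.30, adjusted p = 0.129), and the factor E2F1 with 0.36 (SE 0.16, adjusted p = 0.147) in the cell cycle list, and the antiviral IFIT2 with -0.96 (SE 0.28, adjusted p = 0.0558) and OAS2 with -1.12 (SE 0.43, adjusted p = 0.111) in the interferon list. In antigen presentation they were the immunoproteasome subunit PSB10 with 0.66 (SE 0.19, adjusted p = 0.0540) and HG2A, the invariant chain of class II molecules, with 0.56 (SE 0.17, adjusted p = 0.0583). Among immediate early genes they were KLF6 with -0.52 (SE 0.17, adjusted p = 0.0747) and the phosphatase regulator PR15A with 0.45 (SE 0.21, adjusted p = 0.185). Among mitochondrial genes they were ATP6, a subunit of the ATP synthase, with 1.66 (SE 0.47, adjusted p = 0.0527) and NU3M, a subunit of complex I, with 0.69 (SE 0.29, adjusted p = 0.138). The interferon list ranged from 4.44 in S0242 to 6.59 in S0276 on the log2 scale among ET-type spleens.

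No gene on the lists of neighbouring tissues was called. Of 10 pancreas genes 3 were measured, with a median difference of -0.13 and a mean level of 2.02 to 2.81 in ET-type and 2.31 to 3.09 in L-type spleens; TRYP, trypsin, was at most 4.45 deposited TPM, the elastase CELA1 at most 7.54, and AMYP, pancreatic amylase, 12.7 to 30.3, next to a median of 42.3 in the other tissues. The adipose hormone ADIPO was listed at 0 in 9 of 10 spleens and at 0.0652 TPM in the other, and of 6 adipose genes the measured 2 had a median of -0.30, CIDEC at -0.31 (SE 0.15, adjusted p = 0.189) and FABP4 at -0.29 (SE 0.30, adjusted p = 0.551). Mesothelial genes were highest in ET-type S0276, where the mean level of 4 measured genes was 4.02, against 0.56 to 2.64 in the other spleens. In deposited TPM, MSLN, mesothelin, was listed at 0 in 3 spleens and reached 7.54 in S0276, where the keratins K1C19 and K2C8 stood at 22.6 and 15.6. L-type S0385 held MSLN at 6.93, K1C19 at 8.91 and K2C8 at 6.14, and L-type S0355 at 4.08, 7.97 and 7.51. UPK3B, also mesothelial, was higher in S0385 (5.93) than in S0276 (4.28). MSLN differed by -0.23 (SE 0.72, adjusted p = 0.857), and UPK3B by -0.28 (SE 0.38, adjusted p = 0.649), with a median of -0.22 for the list. Their part in the differences was not tested.

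The direction of several lists depended on the scaling. On TPM as deposited the median fell below 0 for the endothelial (-0.11), matrix (-0.029), granulocyte (-0.18), macrophage (-0.35), stroma (-0.37), progenitor (-0.40), antigen presentation (-0.34), heat shock (-0.26), glycolysis (-0.24) and mitochondrial lists (-0.15), next to -0.47 for all entries. The smooth muscle list stayed at 0.39 and the erythroid list at 0.071. With quantile normalisation the macrophage, stroma and antigen presentation lists were at -0.081, -0.15 and -0.17, and the T and B cell lists at -0.94 and -0.75.

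The length of the transcripts moved with the calls. For each entry, the length was that of its most abundant transcript in spleen. Entries called higher in ET-type spleens had a median length of 1787.5 nucleotides, those called lower 4796 and all tested 2979. Sorted by length into 5 bins of like size, the shortest bin (231 to 1752 nucleotides) had a median difference of 0.21, with 9.20% called higher and 0.903% lower, and the longest bin (4905 to 24199) -0.19, with 0.739% and 7.39%. The bins between had medians of 0.080, 0.00090 and -0.074. Without S0377 and S0385 the ends were 0.13 and -0.14, and with the covariate 0.10 and -0.12. The other tissues of these animals showed no such fall from short to long: the ends were -0.032 and 0.086 in heart, 0.0024 and 0.026 in liver and 0.014 and -0.010 in lung. Per library, the median deviation of the shortest minus that of the longest bin was 0.21, 0.13, 0.24, 0.12 and 0.37 in ET-type and -0.054, -0.084, -0.27, -0.096 and -0.50 in L-type spleens, without overlap, lowest in S0385 and S0377. Its part in the calls of single genes was not tested beyond one setting. When each library's trend with length was removed, a setting added after seeing the data, 234 entries were called, 217 of them among the 829; CTR1 differed by -2.02, SLAF7 by -1.73, BOLA2 by 1.20, SNAI2 by 1.41, ALDOA by 0.93 and S10A9 by 2.19, all still called. Of the 44 named genes called with all spleens, 18 were no longer called, among them S10A8 (adjusted p = 0.0620), ATP5H (0.106), PCP4 (0.0720), HSPB7 (0.0564), GPC3 (0.0594), CY24B (0.0595) and SO2A1 (0.0568).

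Other tissues of the same animals showed how far the differences were those of spleen. Kidney was left out, since the kidney library of S0235 held the lymphocyte marker CD79A at the level given above. For each animal the mean of its heart, liver and lung on the log2 scale was taken from its spleen value, and the result compared between the types, so that the spleen libraries entered here as well. By limma 2095 of 12176 entries were called (17.2%), 1262 higher (10.4%) and 833 lower (6.84%). This count too depended on which animals were included: without S0377 and S0385 it was 1, and without S0309, S0326, S0377 or S0385 alone 1391, 914, 813 and 695. The difference of TNR12 in spleen exceeded that in the other tissues by 1.85 (SE 0.14, adjusted p = 9.59e-05), with -0.55 in heart, 0.29 in liver and -0.16 in lung. For S10A9 the excess was 2.46 (SE 0.41, adjusted p = 0.0104), with 0.0041 in heart, 0.21 in liver and -0.18 in lung, and for SLAF7 -1.501 (SE 0.21, adjusted p = 0.0104), with 0.069 in heart, -0.0081 in liver and -0.15 in lung. For ITA4 it was -1.21 (SE 0.22, adjusted p = 0.0104), with 0.0014 in heart, 0.019 in liver and 0.12 in lung. BOLA2 was higher in ET-type animals in each of the tissues, 1.06 in heart, 0.98 in liver and 0.57 in lung, and the excess in spleen was 0.74 (SE 0.20, adjusted p = 0.0261). ATP5H differed by 0.54 in heart, 1.21 in liver and 1.56 in lung, and by 0.63 (SE 0.17, adjusted p = 0.0298) in spleen over the others. ALDOA differed by -1.22 in heart, 0.25 in liver and 0.14 in lung, and by 1.28 (SE 0.22, adjusted p = 0.0104) in spleen over the others; G3P differed by -0.96 in heart, 0.23 in liver and 0.15 in lung. The mitochondrial gene ATP6 differed by 1.58 in heart, 1.69 in liver and 2.10 in lung, and the excess in spleen, -0.093 (SE 0.38, adjusted p = 0.881), did not pass. Of the T cell list 9 of 24 members were called lower in spleen relative to the other tissues and the median was -0.71; of the erythroid list 8 of 21 were called higher and 1 lower, of smooth muscle 6 of 14 higher, of endothelium 5 of 18 higher, and of B cells 1 of 23 lower. Over the entries called in spleen, the median difference in the other tissues was 0.010 for those higher and -0.036 for those lower in ET-type spleens.

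**Figure D5:**
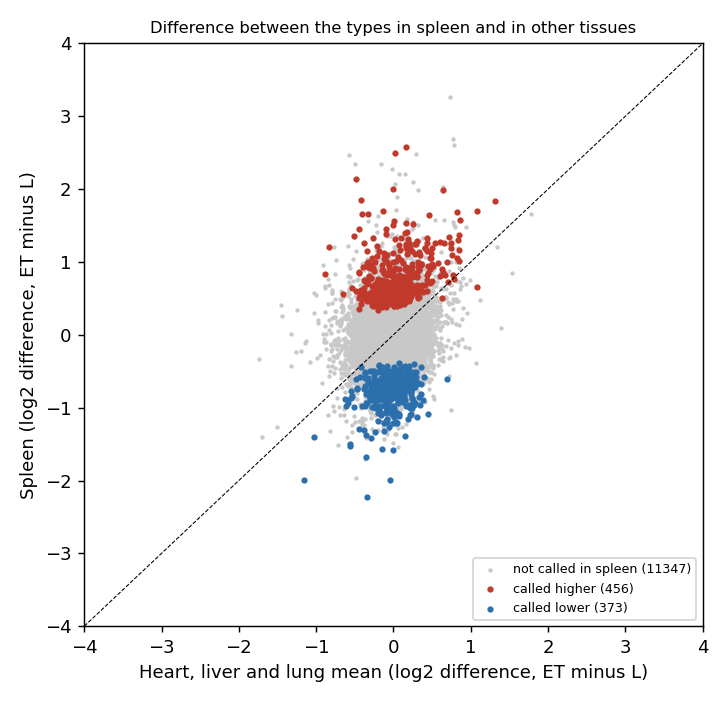
Each of 12176 entries by its log2 difference, ET-type minus L-type, averaged over heart, liver and lung (horizontal) and in spleen (vertical); red and blue points are the 456 and 373 entries called in spleen, and the dashed line marks equal differences. Called entries centre near 0 on the horizontal axis, with medians of 0.010 and -0.036.

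The most abundant entries of the spleen, after the haemoglobins, gave no call. FRIL, the ferritin light chain that stores iron (chromosome 6, 54231121 to 54232756), stood at 29593 ± 5088 in ET-type and 23710.1 ± 2567 TPM in L-type spleens (log2 difference 0.31, SE 0.19, adjusted p = 0.284). IGM, the immunoglobulin mu chain, held 25123 ± 9565 and 20788 ± 6410.1 TPM (log2 difference 0.26, SE 0.32, adjusted p = 0.621), and the kappa chain IGK 17663 ± 10034 and 8809 ± 968 TPM (log2 difference 0.87, SE 0.29, adjusted p = 0.0767); IGK did not overlap, with ET-type S0326 far above the rest. COX1, the cytochrome oxidase subunit encoded in mitochondrial DNA, had 19863 ± 9918 and 14635 ± 3616 TPM (log2 difference 0.36, SE 0.30, adjusted p = 0.452), and HA1B, a class I histocompatibility chain, 13992 ± 4942 and 10239 ± 2345 TPM (log2 difference 0.39, SE 0.29, adjusted p = 0.401). Reads of immunoglobulin and class I genes can be shared among close relatives, so these are levels of families.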

How the data were processed

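Poly(A) RNA of spleen was measured in 10 animals, and heart, liver and lung of the same animals served for comparison. The authors deposited TPM values for 57085 assembled transcripts in 50 libraries, each column adding up to 1e+06; Trimmomatic 0.36 and Salmon 1.10.0 are named in the submitters' processing notes together with Sscrofa11.1. The deposited annotation matches 63.9% of transcripts to a Swiss-Prot protein, which gave 14532 entries; 36.8% of them rest on 1 transcript, and paralogs that share an entry are pooled. Counts were not given, so depth is unknown and the number of animals limits the precision. No 2 libraries were identical.

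HBA, HBB and HBM were left out, libraries were divided by median-ratio size factors over 12188 entries, and log2(rescaled TPM + 1) was fitted for entries with a mean of at least 1. The fit used limma (version 3.58.1, R 4.3.3) with a mean-dependent prior and Benjamini-Hochberg adjustment over all entries; a fold on this scale understates the change of low genes. For single measures the exact permutation test was 2-sided. The fit was tested on simulated data. Figures come from matplotlib 3.10.9 and tables from pandas 2.3.3 with numpy 2.4.6, under Python 3.11.15.

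Members, lists and tests were chosen with earlier results of these data known; 463 genes were put on 26 lists, 398 were matched and 362 tested. Named are the spleen markers and haemoglobins; the 15 called entries with the largest difference in each direction among those without overlap; from each list the called members, at most 4, or else the 2 with the smallest p; and the 5 highest entries. Other list members named, such as defining markers, were chosen with their values known. The animal number pairs tissues: after type means were removed, 40 pairs of a spleen with another tissue of its animal gave a mean r across entries of 0.214 (36 above 0.1), against -0.0545 over 160 pairs of different animals. Removing the means forces the second value below 0 when the first is above it, so it is no separate baseline. Spleen alone has 1 library per animal, so no block enters its fit. Alternatives were other scalings, filters and pseudocounts (0.1), single transcripts, libraries left out, and a fold of at least 2.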

Additional observations from a re-analysis of the deposited data

Results flagged for a closer look

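Some libraries stood far from the other 4 spleens of their type, by a test of the gap next to the range that flags about 1 in 20 groups by chance. Single measures, lists and named genes were screened in both types, so flags by chance are to be expected among those below. How many of them are of that kind was not tested. ET-type S0326 had the fewest entries at 1 rescaled TPM, 11833 against 11919 to 11945. On the log2(rescaled TPM + 1) scale it was also low in the germinal centre list (2.19 against 2.66 to 2.83) and in TOP2A (1.04 against 1.70 to 1.95), and high in S10A8 (4.36 against 2.18 to 2.78) and HSPB1 (10.19 against 9.17 to 9.46). ET-type S0242 was low in the pancreas list (2.02 against 2.62 to 2.81) and high in SLAF7 (2.07 against 1.36 to 1.54). AT11A was high in ET-type S0235 (2.45 against 1.96 to 2.09), IRF4 low in ET-type S0309 (2.95 against 3.48 to 3.57) and C163A low in ET-type S0276 (7.21 against 8.62 to 9.02). In L-type spleens GRAH was high in S0377 (5.09 against 4.34 to 4.42), VGFR3 high in S0384 (2.63 against 2.34 to 2.40) and ATP6 low in S0355 (7.10 against 9.08 to 9.50).

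For the genes named above, the difference between the types in spleen minus that over heart, liver and lung of the same animals passed the limma test in the following cases, with adjusted p between 9.59e-05 and 0.0354. Over all entries 17.2% passed, and without S0377 and S0385 only 1 entry did. Most of these genes were named for their difference in the same spleen libraries, so that passing here is no separate support. On the log2 scale the excess in ET-type spleens was positive for SMAGP (2.39), S10A9 (2.46), S115A (1.96), FBLN3 (1.35), S2539 (2.30), TNR12 (1.85), ATP5H (0.63), PCP4 (2.01) and HSPB7 (2.07). It was also positive for SNAI2 (1.16), BOLA2 (0.74), HTRA3 (1.26), S10A8 (1.49), TPM2 (1.504), DCUP (0.70), SOX18 (1.25), VGFR3 (1.08) and TNR3 (0.52). Positive values further belonged to PGS1 (1.09), SPRC (0.99), DESM (2.06), HSPB1 (1.27), HS71B (0.97), ALDOA (1.28), G3P (0.94) and TPIS (1.05). The excess can be larger than the difference in spleen itself where the other tissues differ the opposite way. For ALDOA the difference was 0.97 in spleen and -0.285 over the other tissues. The excess was negative for CSGB (-1.78), CTR1 (-1.28), SLAF7 (-1.501), UBS3B (-0.87), KLRG1 (-1.48), AT11A (-0.97), ZBTB4 (-1.04), ITA4 (-1.21) and CO6A5 (-1.15). It was also negative for ARHGI (-1.16), ADEC1 (-1.04), SCML4 (-1.18), HXB8 (-1.01), IRF4 (-0.94), LEF1 (-1.36), CD3D (-1.15), SOX13 (-0.61) and GRAH (-1.07). Negative values further belonged to ITF2 (-0.76) and IFIT2 (-0.84).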

How the results depend on the processing

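The 829 calls in spleen (456 higher, 373 lower) became 4553 (110 and 4443) on TPM as deposited, 2027 (199 and 1828) with the rest brought back to the same total, 171 (87 and 84) with quantile normalisation, 234 (116 and 118) with the length trend removed and 134 (85 and 49) at a fold of at least 2. They became 0 with the haemoglobin covariate and 0 without S0377 and S0385 or without S0276 and S0326. With all 50 libraries and the animal as replicate block 192 were called (119 and 73), 132 of them among the 829. At a mean of at least 5 TPM 215 were lower. Leaving out 1 library gave 7 to 1096 calls (4 to 571 higher, 3 to 525 lower): 7 without L-type S0385, 13 without L-type S0377, 15 without ET-type S0326, 116 without S0235, 137 without S0276, 207 without S0384 and 327 without S0242. The excess in spleen over other tissues was called in 3677 entries on deposited TPM (135 higher, 3542 lower), was higher in 814 with kidney kept, was 1 (1 and 0) without S0377 and S0385, and 695 to 2167 with 1 animal left out (430 to 1265 higher, 265 to 902 lower; 1391 without S0309). The haemoglobin share differed by 11.3 to 16.9 percentage points with 1 library left out. Genes that were not called turned direction on deposited TPM in TLX1 (-0.16), MADCA (-0.12), MEF2B (-0.18), C1QB (-0.038), RBTN2 (-0.10), TNR3 (-0.12), E2F1 (-0.031), PR15A (-0.059), CELA1 (-0.073), FRIL (-0.22), IGM (-0.27), COX1 (-0.17) and HA1B (-0.14); brought back to the same total in IGM (-0.026); with the covariate in TLX1 (-0.025), CD79A (0.083), BACH2 (0.070), TOP2A (0.00074), TRYP (0.062), COX1 (-0.087); with quantile normalisation in FRIL (-0.15), COX1 (-0.11) and HA1B (-0.040); without S0276 and S0326 in COX1 (-0.053); with single transcripts in CIDEC (0.037). MSLN ranged from -0.88 to 0.081 with 1 library left out. The cause was not tested. Of 44 named genes called, 44 kept the call with haemoglobins kept in the scaling, 42 with a pseudocount of 0.1, 35 with no filter, 26 with the length trend removed, 22 with quantile normalisation, 21 on single transcripts, 17 with the replicate block, 16 without S0276, 6 without S0377 or S0326 and 4 without S0385.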

Other observations

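Gene families outside the lists were looked at after the values were seen, and are given as descriptions. Nuclear genes for complex I, the first enzyme of the respiratory chain, were called higher in ET-type spleens in 13 of 42 cases and called lower in 0. Called higher were 3.75% of all entries and 9.20% of those with the shortest transcripts. Of the 42, 40 had a difference above 0 and 2 below, with a median log2 difference of 0.43. The mean level of the family was 5.99, 5.87, 6.06, 5.82 and 6.08 in ET-type and 5.75, 5.67, 5.38, 5.54 and 5.22 in L-type spleens, without overlap. NDUA2, a subunit of the matrix arm, stood at 90.4 ± 7.85 against 53.3 ± 7.28 rescaled TPM and differed by 0.76 (SE 0.12, adjusted p = 0.0225). NDUB9, a subunit of the membrane arm, differed by 0.84 (SE 0.15, adjusted p = 0.0297). The family's transcripts were short, with a median of 1194.5 nucleotides, and with the length trend removed the median difference was 0.26 and 3 members were called. Without S0377 and S0385 the median was 0.29, and with the haemoglobin covariate 0.25.

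Cytosolic ribosomal proteins were called higher in 6 of 81 cases, against 3.75% of all entries and 9.20% of those with the shortest transcripts, with a median of 0.28. Their mean level was 9.35 to 9.65 in ET-type and 8.87 to 9.41 in L-type spleens, with overlap. RL18, of the large subunit, differed by 0.58 (SE 0.13, adjusted p = 0.0359). With the length trend removed the median was 0.084 and 0 were called, without S0377 and S0385 the median was 0.11, and with the covariate 0.050. Zinc finger proteins, a large family of DNA-binding factors, were called lower in 22 of 284 cases and higher in 2, with a median of -0.13. Over all entries 3.06% were called lower. The family's median transcript length was 3457 nucleotides, within the middle length bin (2537 to 3497), where 2.05% were called lower. Among entries with the longest transcripts it was 7.39%. With the length trend removed the family's median was -0.092 and 10 members were called. Without S0377 and S0385 the median was -0.17, and with the covariate -0.17. The family's mean level was 2.69 to 2.78 in ET-type and 2.88 to 2.91 in L-type spleens. ZN605 differed by -0.72 (SE 0.13, adjusted p = 0.0297).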
